A study of Homo sapiens with 18 samples.

Results

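The genes described here encode the proteasome subunits, its activators and inhibitor, and the factors that assemble it, in HCT116 cells, a cultured line that derives from a human colorectal carcinoma. Members were chosen by gene type and symbol alone: protein-coding entries whose symbol begins with PSMA, PSMB, PSMC, PSMD, PSME, PSMF or PSMG followed by a number. That rule took 49 of the 31004 genes in the count table, of which 16563 were protein-coding. One of the 49, PSMC3IP, encodes a recombination factor and no proteasome part, and is reported apart. The remaining 48 entries stood for 46 distinct genes, because PSMA1 and PSMA2 were each listed a second time as a readthrough model. Such a transcript model here runs on from the named gene into a neighbouring gene. PSMA8 and PSMB11 were not analysed here.

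RNA-seq was read from 18 libraries in 6 groups of 3 replicates. All cells were HCT116 carrying one of 3 backgrounds: an empty control (Ctrl), stable lentiviral overexpression of the long non-coding RNA CRLM1 (CRLM1), or an antisense control (Antisense). Each background was combined with a negative control plasmid (NC) or with overexpression of HNRNPK, an RNA- and DNA-binding protein (hnRNPK). The 6 groups are called Ctrl_NC, Ctrl_hnRNPK, CRLM1_NC, CRLM1_hnRNPK, Antisense_NC and Antisense_hnRNPK. The NC groups ask what CRLM1 did to expression, and the hnRNPK groups ask what HNRNPK did in each background. All values are from bulk RNA of one cell line, in which fewer cells with a transcript and less of it per cell cannot be told apart.

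The proteasome is the large protease that degrades proteins tagged with ubiquitin. Its core particle is a barrel of alpha rings around beta rings, and the beta subunits PSMB5, PSMB6 and PSMB7 carry the cutting sites. A regulatory cap, made of a base with a ring of ATPases and a lid that removes ubiquitin, recognises and unfolds substrates and feeds them to the core. In cells exposed to interferon, PSMB8, PSMB9 and PSMB10 can take the place of the catalytic subunits and form the immunoproteasome, which cuts peptides suited to presentation by MHC class I. Activators of the PSME family open the core without the cap, PSMF1 inhibits it, and chaperones of the PSMG family and 3 PSMD proteins guide assembly.

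Promoters are shown for 4 members because transcription of proteasome genes is known to be coordinated through short promoter motifs, and because these members were the 2 highest and the 2 lowest by fold change, among those with a RefSeq promoter, in the widest contrast of the NC groups (Antisense_NC against Ctrl_NC). Each runs 5′ to 3′ from 250 bases before to 50 bases after the RefSeq start in GRCh38.p14, and where a gene had more than 1 start the first listed was read. PSME4 lies at chr2:53970944-53971243 on the minus strand, PSMD12 at chr17:67366528-67366827 on the minus strand, PSMD2 at chr3:184298991-184299290 on the plus strand and PSMG4 at chr6:3258697-3258996 on the plus strand. Capitals mark matches, on either strand, to the core of the antioxidant response element (TGACNNNGC), the CCAAT box (CCAAT) or the ETS core (CCGGAAG).
PSME4: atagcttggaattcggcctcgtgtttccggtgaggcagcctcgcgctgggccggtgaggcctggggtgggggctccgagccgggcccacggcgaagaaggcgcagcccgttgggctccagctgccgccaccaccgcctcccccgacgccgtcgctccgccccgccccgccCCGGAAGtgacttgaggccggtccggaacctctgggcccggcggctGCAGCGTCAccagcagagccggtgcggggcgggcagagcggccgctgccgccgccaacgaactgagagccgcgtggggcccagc
PSMD12: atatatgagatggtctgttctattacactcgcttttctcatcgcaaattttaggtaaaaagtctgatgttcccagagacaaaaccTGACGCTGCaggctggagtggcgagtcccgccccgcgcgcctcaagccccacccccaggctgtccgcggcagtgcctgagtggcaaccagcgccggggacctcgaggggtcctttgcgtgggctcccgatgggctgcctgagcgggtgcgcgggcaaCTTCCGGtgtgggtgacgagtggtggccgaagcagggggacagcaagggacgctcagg
PSMD2: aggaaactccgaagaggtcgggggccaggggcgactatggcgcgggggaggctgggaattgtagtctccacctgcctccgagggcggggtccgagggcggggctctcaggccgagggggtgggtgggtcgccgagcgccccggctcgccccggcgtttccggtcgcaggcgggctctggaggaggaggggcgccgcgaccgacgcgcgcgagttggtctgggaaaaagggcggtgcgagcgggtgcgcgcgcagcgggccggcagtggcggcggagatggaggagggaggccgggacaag
PSMG4: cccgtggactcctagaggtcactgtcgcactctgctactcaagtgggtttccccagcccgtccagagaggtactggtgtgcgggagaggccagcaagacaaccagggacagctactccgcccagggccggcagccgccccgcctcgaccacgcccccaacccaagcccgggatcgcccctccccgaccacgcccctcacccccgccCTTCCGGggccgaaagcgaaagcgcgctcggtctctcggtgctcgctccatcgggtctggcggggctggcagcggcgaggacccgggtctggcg
The PSME4 and PSMD12 windows each held 1 antioxidant response element core and 1 ETS core, the PSMD2 window held no match, and the PSMG4 window held 1 ETS core. Of the 46 genes, 40 had a promoter in the table. The antioxidant response element core occurred in 13 of them (32.5%, against 13.35% of all 35116 promoters of that length), the CCAAT box in 18 (45.0% against 34.61%) and the ETS core in 12 (30.0% against 10.26%). Those 35116 were not limited to 1 start per gene, to protein-coding genes or to expressed genes, so the sets compared are unlike. The same letters can fall within one another's matches, and a match is a description of the sequence, not of binding.

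The libraries held 19732681 to 27039520 counted reads, and the 49 members took 0.371% to 0.554% of them. LINC01767, the gene that matches CRLM1, was at 0 CPM (read counts scaled to a common library size) in every Ctrl library. It was at 583 to 670 CPM in the 6 CRLM1 libraries and at 38.4 to 49.8 CPM in the 6 Antisense libraries. Whether counting used strand is not given, so the reads of the Antisense libraries may be sense or antisense reads. The paper names that control as CRLM1 antisense overexpression, and its sequence is not given in the sources used here. HNRNPK stood at 420 to 480 CPM in the 9 NC libraries and at 490 to 717 CPM in the 9 hnRNPK libraries, and the lowest of the latter was the third Ctrl_hnRNPK library. That library correlated less with the other Ctrl_hnRNPK libraries (Pearson r over genes 0.967 to 0.971) than with the Ctrl_NC libraries (0.991 to 0.992). The third CRLM1_hnRNPK library likewise correlated at 0.962 to 0.966 with its own group and at 0.988 with the CRLM1_NC libraries. The study left both out. They are kept here, and counts of members called with hnRNPK are given with and without them. In CRLM1_hnRNPK replicate 3, HNRNPK was at 581 CPM, below the other CRLM1_hnRNPK libraries (677 and 717 CPM). It was above all CRLM1_NC libraries (454 to 461 CPM) and all Antisense_hnRNPK libraries (532 to 573 CPM). Whether the changes of members followed the HNRNPK level was not tested. All 6 epithelial markers were expressed in every library, with KRT8 at 862 to 3770 CPM, and the leukocyte markers PTPRC and CD14 were at 0 to 2 counts in each. CD68, of the leukocyte list, was at 0.784 to 4.62 CPM and lower in CRLM1_NC than in Ctrl_NC (-0.76), and COL1A1, of the fibroblast list, was at 11.19 to 32.3 CPM and higher there (0.26). Their part in the results was not tested.

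In Ctrl_NC cells the beta ring genes other than those of the immunoproteasome had the highest median levels per length, without a test. Levels per length are given in FPKM, reads per transcript length and library size, as the Ctrl_NC mean of 3 libraries. The 3 catalytic beta genes ranged from 86.2 (PSMB5) to 119 FPKM (PSMB7), with a median of 89.2. Noncatalytic beta genes ranged from 28.3 (PSMB2) to 214 FPKM (PSMB3), with a median of 153. The 6 ATPases of the cap base ranged from 2.39 (PSMC1) to 53.6 FPKM (PSMC3), the 3 other base genes from 13.5 (PSMD1) to 73.7 FPKM (PSMD2), and the 8 lid genes from 3.97 (PSMD12) to 65.8 FPKM (PSMD8), with medians of 18.2, 42.9 and 16.3. Among the activators, PSME1, one chain of the interferon-linked PA28 ring, reached 134 FPKM while PSME4, which encodes the single-chain activator PA200, stood at 2.33. Assembly factors were low, at 3.49 (PSMD5) to 12.5 FPKM (PSMD10) for the cap and 1.4 (PSMG4) to 21.8 FPKM (PSMG3) for the core. The immunoproteasome genes were uneven: PSMB9 stood at 27.2, PSMB10 at 3.93 and PSMB8 at 0.0733 FPKM.

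Alpha ring levels need care, because the table divided the reads of 3 alpha genes between models. Of the reads given to PSMA1 and its readthrough model together, 89.5% to 92.6% went to the readthrough model, and for PSMA2 it was 98.1% to 100%. PSMA6 left 94.5% to 96.9% with RP11-561B11.2, a model that overlaps it. The 7 alpha genes thus ranged from 0.21 (PSMA2) to 74.7 FPKM (PSMA7), whereas the readthrough models of PSMA1 and PSMA2 stood at 60.7 and 14.1 FPKM. Other members share exonic sequence with neighbours in Gencode 44, with 76.1% of PSMC1 overlapped by NRDE2 on the opposite strand, 39.4% of PSMB10 by a readthrough model, 31.2% of PSMD7 by a model on the opposite strand, 17.7% of PSMD9 by other models, 17.3% of PSMB8 by its antisense RNA and PSMB9, 15.3% of PSMC5 by FTSJ3 and 15.0% of PSMG4 by opposite-strand models. Whether counting used strand is not given in the sources used here, so the values of these members may include reads of the neighbour.

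**Figure D1:**
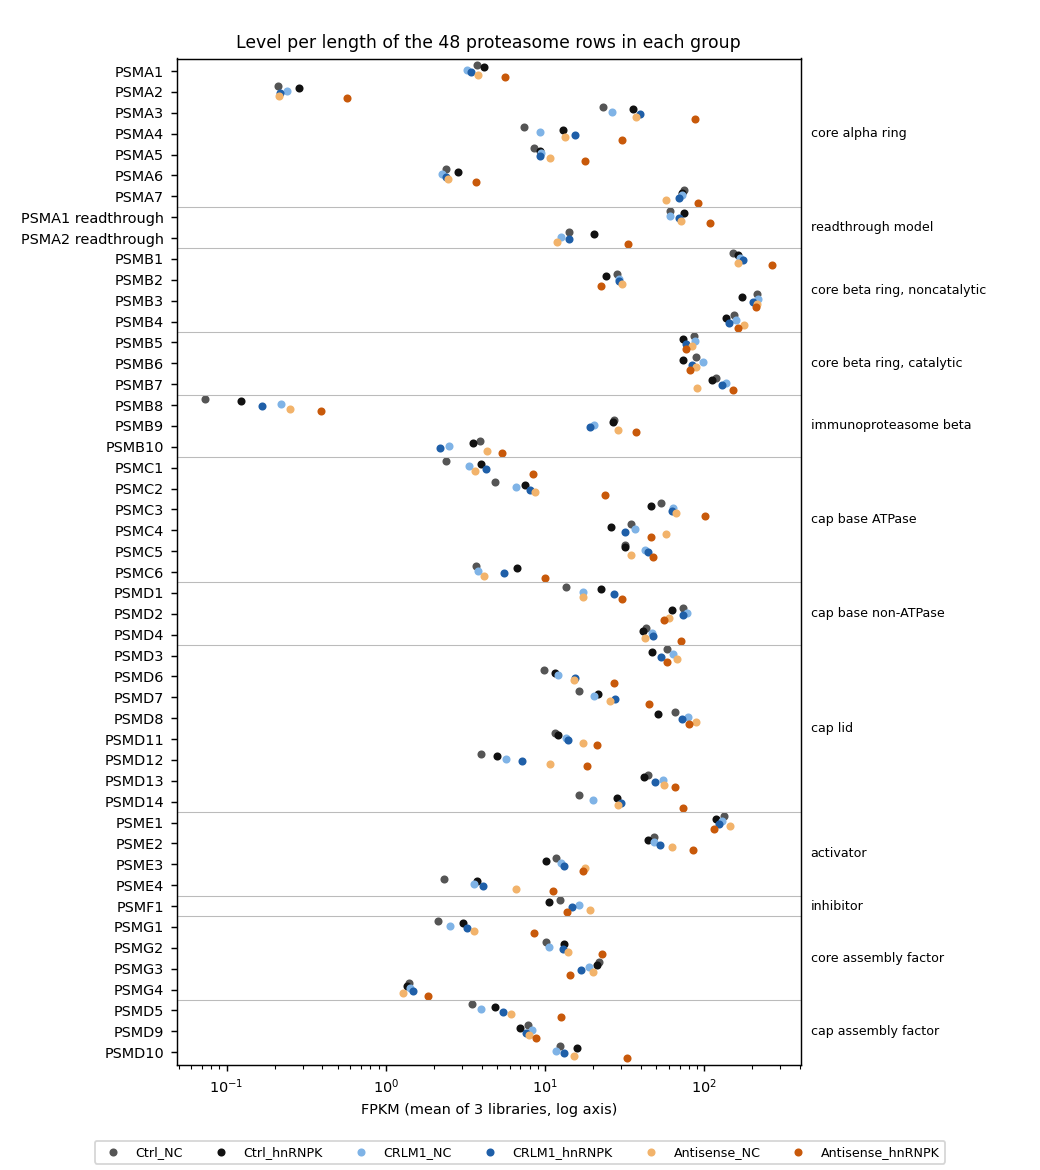
Level per length of the 48 proteasome entries, grouped by role (vertical axis), in FPKM on a log axis (horizontal), with 1 point per group for the mean of 3 libraries. Points of the catalytic beta genes PSMB5, PSMB6 and PSMB7 lie near 100 FPKM, while PSMB8, PSMA2 and PSMG4 stay below 2 FPKM in all 6 groups.

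PSMB8 was read too rarely for a fold change. Its counts were 0, 9 and 3 in the Ctrl_NC libraries, 2, 1 and 14 in Ctrl_hnRNPK, 14, 4 and 12 in CRLM1_NC, 11, 5 and 7 in CRLM1_hnRNPK, 12, 10 and 10 in Antisense_NC, and 21, 22 and 10 in Antisense_hnRNPK. The Ctrl_NC libraries lay below all Antisense_NC and Antisense_hnRNPK libraries and overlapped with the other groups. In the comparisons with Ctrl_NC the gene did not pass the low-count filter and was not tested. PSMB8 passed the filter in CRLM1_NC against Antisense_NC and in the CRLM1 and Antisense hnRNPK comparisons, and passed the adjusted p threshold in none of them.

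CRLM1 overexpression was accompanied by more cap transcripts and less immunoproteasome transcript than in the empty control, and 0 members passed 2-fold (1.58% of all genes did so with an adjusted p of at most 0.05). Of the 47 entries tested in CRLM1_NC against Ctrl_NC, 16 were higher and 6 lower at an adjusted p of at most 0.05 (edgeR quasi-likelihood test, Benjamini-Hochberg over all genes). Of all genes, 34.3% were called, 16.9% higher and 17.4% lower. The median log2 fold change was 0.06 over the 47 and 0.01 over all genes. Cap lid genes rose in 7 of 8 cases and base ATPases in 4 of 6, while 0 of 4 noncatalytic beta genes and 0 of 3 cap assembly factors passed. On log2 FPKM, which was not rescaled for composition and shifted the median of all genes by 0.07, the split was 19 higher and 3 lower.

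PSME4 rose most. Its normalised counts were 25.1, 22.9 and 22.9 CPM in Ctrl_NC and 35.2, 35.1 and 34.8 CPM in CRLM1_NC. The groups did not overlap, and the log2 fold change was 0.55 (SE 0.08, edgeR adjusted p = 1.74e-07). PSMD12, a scaffold subunit of the lid, went from 21.8, 26.4 and 26.8 CPM to 36.1, 34.1 and 32.5 CPM, again without overlap (0.43, SE 0.08, edgeR adjusted p = 3.98e-05). PSMC1, an ATPase of the base, rose by 0.41 (SE 0.10, edgeR adjusted p = 0.000907), subject to the NRDE2 overlap named above. The inhibitor PSMF1 was at 77.1 to 79.95 CPM in Ctrl_NC and 96.8 to 100.4 CPM in CRLM1_NC, a log2 fold change of 0.32.

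Both measurable immunoproteasome genes fell. PSMB9 had 35.98, 36.4 and 34.95 CPM in Ctrl_NC and 23.1, 26.8 and 26.9 CPM in CRLM1_NC. Every CRLM1_NC library was below every Ctrl_NC library, and the log2 fold change was -0.50 (SE 0.08, edgeR adjusted p = 1.46e-06). PSMB10 had 6.11, 7.16 and 7.27 CPM in Ctrl_NC and 3.78, 4.22 and 4.42 CPM in CRLM1_NC, also without overlap (-0.75, SE 0.17, edgeR adjusted p = 0.000448). PSMG3, a chaperone of alpha ring assembly, fell by 0.28 on the log2 scale (SE 0.06, edgeR adjusted p = 0.000119). Among the catalytic genes, PSMB7, whose place PSMB10 can take, rose by 0.12 (edgeR adjusted p = 0.0111), PSMB6, whose place PSMB9 can take, was at 0.06 (0.32), and PSMB5 was at -0.06 (0.23). In a single fit of all 18 libraries no member passed in this contrast, with PSMB9 at -0.48 (edgeR adjusted p = 0.407), PSMB10 at -0.73 (0.234), PSME4 at 0.57 (0.381) and PSMD12 at 0.45 (0.25).

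As a share of the summed FPKM of the 6 catalytic genes, the 3 immunoproteasome genes made up 9.58% ± 0.13 (SD, n = 3) in Ctrl_NC, 6.67% ± 0.48 in CRLM1_NC and 11.22% ± 0.70 in Antisense_NC. The libraries of these groups did not overlap, at 9.45% to 9.71%, 6.16% to 7.12% and 10.7% to 12.02%. In the same order, the mean summed CPM of the immunoproteasome genes was 42.8, 30.2 and 40.1. For PSMB5, PSMB6 and PSMB7 together it was 458, 475 and 360. In CPM the higher share in Antisense_NC thus went with a lower sum of these catalytic genes and not with a higher immunoproteasome sum. In FPKM, PSMB9 averaged 28.9 in Antisense_NC and 27.2 in Ctrl_NC, PSMB10 4.32 and 3.93, and PSMB7 90.6 and 119. PSMB5 (84.0 and 86.2) and PSMB6 (89.1 and 89.2) differed less than PSMB7. With hnRNPK the shares were 6.90% ± 0.38 in CRLM1_hnRNPK, 12.1% ± 0.84 in Antisense_hnRNPK and 10.3% ± 2.01 in Ctrl_hnRNPK, where the third library alone stood at 12.6% and the mean of the others at 9.15%. The CRLM1 groups thus held the lowest shares with either plasmid. The shares are given without a test.

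Genes of MHC class I antigen processing, a list of 12, were also read in this contrast. In CRLM1_NC against Ctrl_NC, 9 of the 12 were lower and 0 higher, against 17.4% and 16.9% of all genes. IRF1, a transcription factor of the interferon response, was at 176 to 182 CPM in Ctrl_NC and 88.3 to 102 CPM in CRLM1_NC (log2 fold change -0.90, edgeR adjusted p = 2.9e-19). NLRC5, an activator of MHC class I genes, was at -0.53, but its groups overlapped. It had 5.67, 5.64 and 4.77 CPM in Ctrl_NC and 3.19, 2.72 and 5.44 CPM in CRLM1_NC. A relation between these genes and the immunoproteasome genes was not tested.

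**Figure D2:**
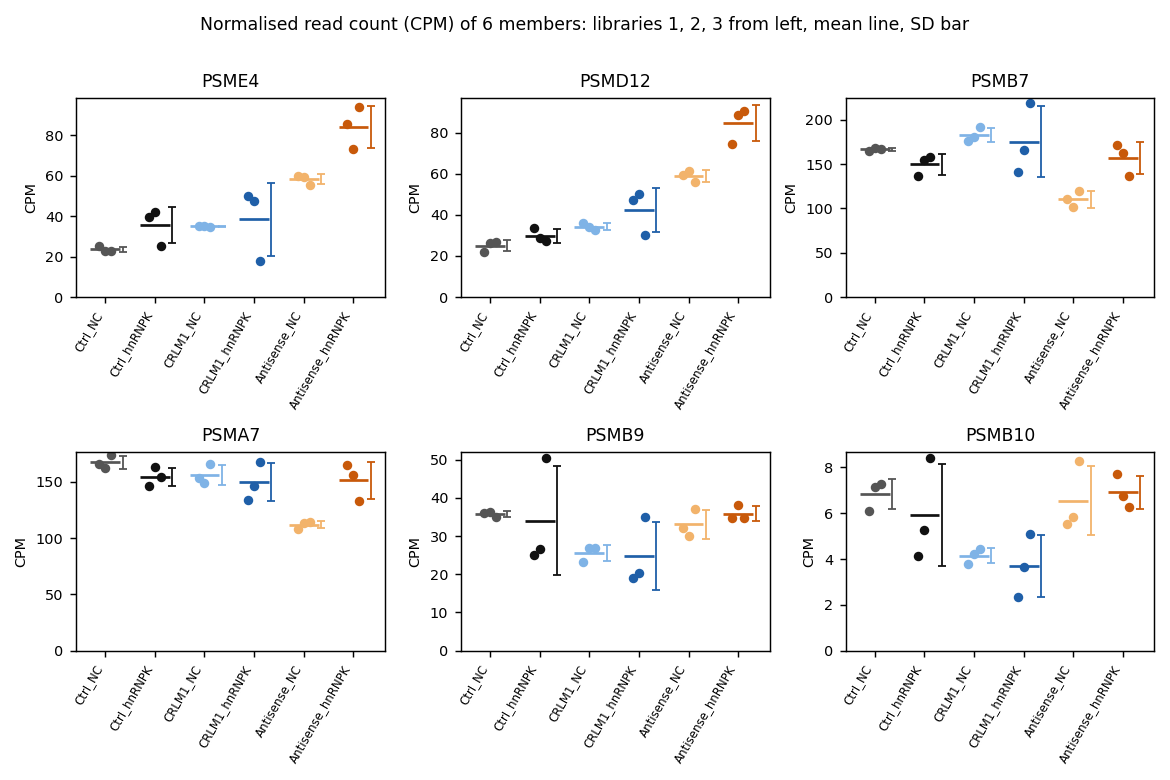
Normalised read count (CPM, vertical axis from 0) of 6 members in the 6 groups; points are the libraries, lines the means and bars the SD of 3 libraries. PSME4 and PSMD12 are highest in the Antisense groups, PSMB7 and PSMA7 are lowest in Antisense_NC, and PSMB9 and PSMB10 are low in CRLM1_NC and in 2 of the 3 CRLM1_hnRNPK libraries.

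Compared with the antisense control, CRLM1 cells had more transcript of the catalytic subunit PSMB7 and less of PSME4 and PSMD12. In CRLM1_NC against Antisense_NC, 15 of 48 entries were higher and 17 lower, against 26.9% and 29.5% of all genes (56.4% called). None passed 2-fold, as 7.18% of all genes did. Medians were 0.0011 over the 48 entries and -0.0034 over all genes. All 3 catalytic genes, all 3 non-ATPase base genes and 3 of 4 noncatalytic beta genes were higher, whereas 3 of 4 activators and 4 of 8 lid genes were lower. The split depended on scaling: on log2 FPKM, where the median of all genes shifted by -0.16, it was 5 higher and 25 lower.

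PSMB7, which cuts after basic residues, had 177, 181 and 192 CPM in CRLM1_NC and 110, 101 and 120 CPM in Antisense_NC (log2 fold change 0.75, SE 0.05, edgeR adjusted p = 6.25e-15). PSMD2, a scaffold subunit of the base, had 376, 377 and 382 CPM against 252, 268 and 273 CPM (0.54, SE 0.04, edgeR adjusted p = 1.64e-15). PSMA7, an alpha ring subunit, had 153, 148 and 165 CPM against 108, 114 and 114 CPM (0.50, SE 0.05, edgeR adjusted p = 5.42e-12). None of the 3 overlapped between the groups. PSMB6 and PSMB5 were higher by 0.30 and 0.22 (edgeR adjusted p = 2.37e-06 and 3.38e-05), but on log2(FPKM + 0.1) they were at 0.14 and 0.05 (limma adjusted p = 0.0622 and 0.307) and with a trend on GC content and length removed at 0.08 and 0.04 (edgeR adjusted p = 0.141 and 0.348). In a single fit of all 18 libraries 5 members passed, and PSME4, PSMB10, PSMB9, PSMB6 and PSMB5 did not. PSMD12 fell by 0.76 (SE 0.07, edgeR adjusted p = 1.49e-12), PSME4 by 0.71 (SE 0.06, edgeR adjusted p = 4.75e-12) and PSMB10 by 0.63 (SE 0.17, edgeR adjusted p = 0.00224), and PSMB9 fell by 0.34. PSMB9 and PSMB10 were thus lower in CRLM1_NC than in either control. The 2 contrasts share the CRLM1_NC libraries.

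The 2 control backgrounds also differed from each other in the members, with PSME4 and PSMD12 higher and PSMB7 and PSMA7 lower in Antisense_NC than in Ctrl_NC. In Antisense_NC against Ctrl_NC, 20 of 47 entries were higher and 14 lower, against 34.4% and 32.2% of all genes (66.5% called). Medians were 0.0083 over the 47 and -0.0025 over all genes. On log2 FPKM, where the median of all genes shifted by 0.21, the split was 29 higher and 5 lower. Lid genes were higher in 7 of 8 cases and activators in 3 of 4, while 3 of 3 catalytic and 3 of 4 noncatalytic beta genes were lower.

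Both members past 2-fold (14.1% of all genes passed both thresholds) were the ones already highest in CRLM1_NC against Ctrl_NC, a contrast with which this one shares the Ctrl_NC libraries. PSME4 reached 59.6, 59.5 and 55.3 CPM in Antisense_NC, above all Ctrl_NC and CRLM1_NC libraries (log2 fold change against Ctrl_NC 1.27, SE 0.07, edgeR adjusted p = 1.68e-18). PSMD12 reached 59.4, 61.5 and 55.9 CPM (1.20, SE 0.07, edgeR adjusted p = 4.9e-17). PSMA4, an alpha ring subunit, had 50.01, 48.2 and 48.5 CPM in Ctrl_NC and 78.5, 75.4 and 79.9 CPM in Antisense_NC (0.64, SE 0.05, edgeR adjusted p = 6.95e-13). PSMB7 fell by 0.63 (SE 0.05, edgeR adjusted p = 1.65e-14), its Ctrl_NC libraries being at 164, 168 and 167 CPM. PSMA7, at 166, 162 and 173 CPM in Ctrl_NC, fell by 0.62 (SE 0.04, edgeR adjusted p = 1.49e-15), and PSMD2, at 370, 374 and 378 CPM, by 0.54 (SE 0.04, edgeR adjusted p = 5.75e-16). The Antisense_NC libraries of these 3 genes, given above, were all lower than the Ctrl_NC libraries. PSMB5 and PSMB6 were lower by smaller amounts, at -0.27 and -0.24. In a single fit of all 18 libraries 16 members passed, and PSMB5 and PSMB6 did not (edgeR adjusted p = 0.358 and 0.512). The immunoproteasome genes did not pass, with PSMB9 at -0.15 (edgeR adjusted p = 0.075) and PSMB10 at -0.11 (0.53).

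Members with an ETS core in the promoter had a median log2 fold change of 0.38 in this contrast, with 9 of 12 higher and 2 lower, and the 27 tested members without one had a median of 0.06, with 11 higher and 5 lower. For the antioxidant response element core the medians were 0.13 with (8 of 13 higher, 3 lower) and 0.08 without (12 of 26 higher, 4 lower). For the CCAAT box they were 0.09 with (8 of 18 higher, 3 lower) and 0.13 without (12 of 21 higher, 4 lower). Over all 47 entries tested in this contrast 20 were higher and 14 lower. Most entries that this split leaves out for want of a promoter, PSMB7 and PSMA7 among them, were called lower. Members with an ETS core included the lid genes PSMD6, PSMD7, PSMD8, PSMD12, PSMD13 and PSMD14, so the split overlaps with the roles above. These are descriptions without a test.

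**Figure D3:**
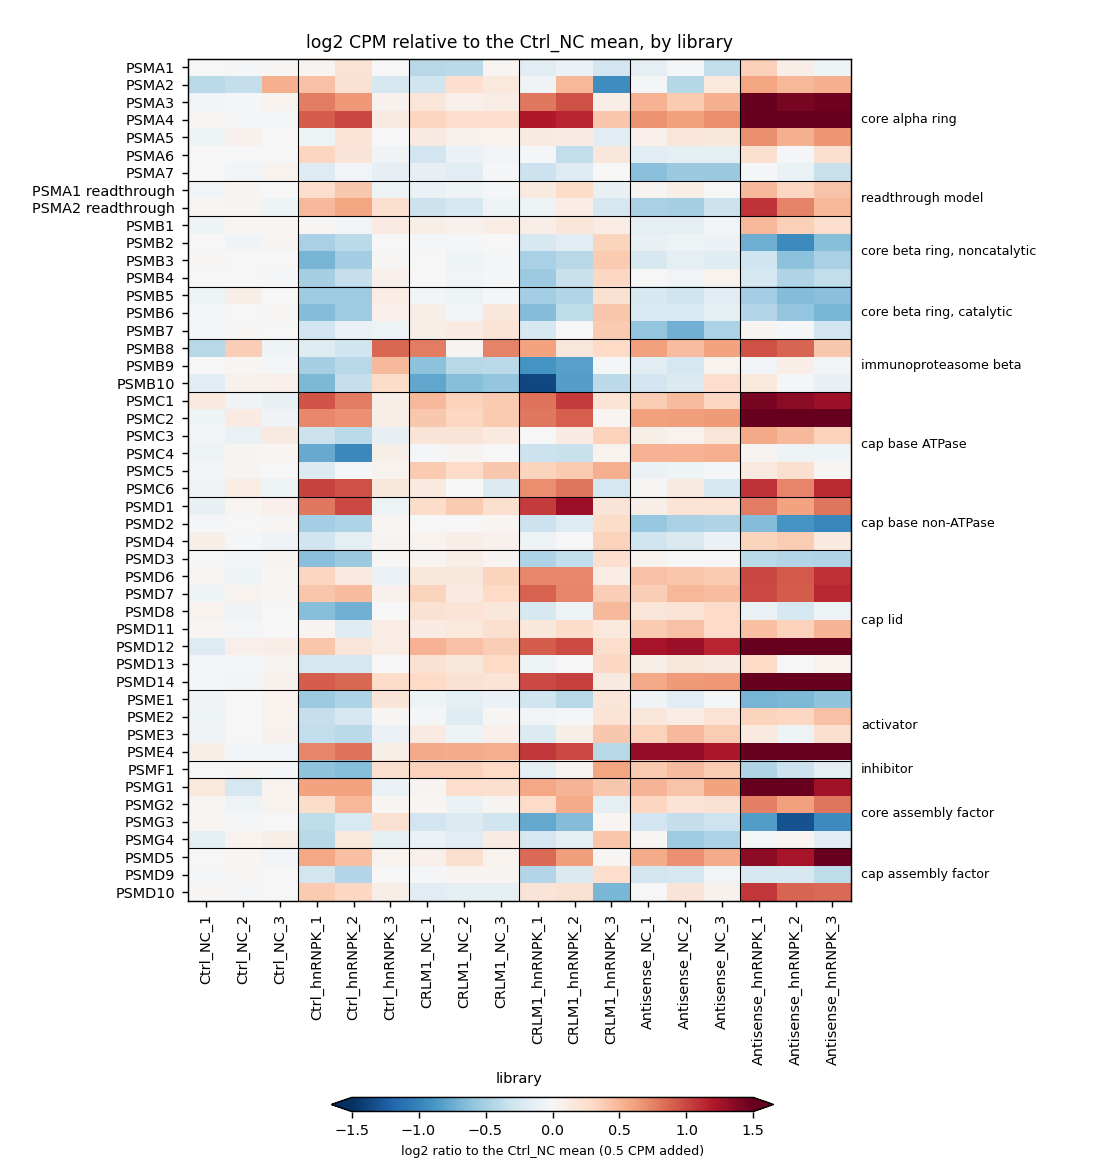
Difference of each member (rows, by role) in each of the 18 libraries (columns) from the Ctrl_NC mean, as a log2 ratio of CPM after a small constant was added; red is higher and blue lower, and the scale is capped at both ends. The third Ctrl_hnRNPK and CRLM1_hnRNPK libraries are paler than the other hnRNPK libraries of their groups, and PSME4 and PSMD12 are red in all Antisense libraries.

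HNRNPK overexpression in the Ctrl background was accompanied by opposite changes within the same subcomplexes, once the third library was left out. With all libraries 0 of 47 entries passed, against 0% of all genes called. The lowest adjusted p among members was 0.32, 9 passed an unadjusted p of 0.05, and DESeq2 and limma also called 0. Without the third Ctrl_hnRNPK library 17 entries were higher and 21 lower, against 29.6% and 29.9% of all genes (59.6% called), and the median was -0.11. The fold changes that follow are from that fit. With all libraries those of the members named were smaller, with PSMC6 at 0.75, PSMA4 at 0.70 and PSMD1 at 0.60, PSMC4 at -0.51, PSMD8 at -0.46 and PSMF1 at -0.32, and the catalytic PSMB6, PSMB5 and PSMB7 at -0.37, -0.32 and -0.19.

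PSMA4 was at 92.1 and 98.2 CPM in the first and second Ctrl_hnRNPK libraries, at 53.8 CPM in the third and at 48.2 to 50.01 CPM in Ctrl_NC (log2 fold change 0.96, SE 0.07, edgeR adjusted p = 8.71e-09). PSMC6, an ATPase of the base, was at 23.7, 22.7 and 13 CPM against 10.8 to 12.4 CPM (1.01, SE 0.12, edgeR adjusted p = 1.05e-06) and was the one member past 2-fold (6.88% of all genes). PSMD1, at 112, 128 and 61.3 CPM against 59.7 to 67.9 CPM, rose by 0.89 (SE 0.08, edgeR adjusted p = 3.5e-08). In each case the first and second libraries were above all Ctrl_NC libraries and the third was near or within their range.

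For PSMC4, PSMD8 and PSMF1, which fell, the first and second libraries were below all Ctrl_NC libraries. The third was within or above the Ctrl_NC range. PSMC4, another ATPase of the ring that holds PSMC6, was at 46.8, 40.5 and 84.2 CPM against 75.3 to 81.9 CPM (log2 fold change -0.86, SE 0.09, edgeR adjusted p = 1.59e-07). PSMD8, a lid subunit, was at 163, 153 and 252 CPM against 244 to 262 CPM (-0.68, SE 0.06, edgeR adjusted p = 6.2e-08). PSMF1 was at 51.8, 50.2 and 92.9 CPM against 77.1 to 79.95 CPM (-0.63, SE 0.07, edgeR adjusted p = 1.28e-06). The catalytic genes also fell, PSMB6 by 0.60, PSMB5 by 0.54 and PSMB7 by 0.20, as did PSMB10 by 0.55 and PSMB9 by 0.47 (with all libraries they were at -0.25 and -0.11, not past the threshold).

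In the CRLM1 background the members took similar directions, but again no entry passed with all libraries (0 of 48, against 0% of all genes called by edgeR, lowest member adjusted p 0.533, 4 at an unadjusted p of 0.05). Without the third CRLM1_hnRNPK library 17 entries were higher and 16 lower, against 29.5% and 29.1% of all genes (58.5% called), with a median of 0.01. None passed 2-fold, as 5.3% of all genes did. PSMA4 was at 113, 109 and 65.4 CPM against 58.5 to 61.1 CPM in CRLM1_NC (log2 fold change 0.94, SE 0.06, edgeR adjusted p = 1.92e-13), and this is from the fit without the third library, as are the values below. PSMD1 rose by 0.90 (SE 0.07, edgeR adjusted p = 2.61e-12) and PSMC6 by 0.82 (SE 0.12, edgeR adjusted p = 1.77e-06). PSMB6, at 70.6, 85.2 and 149 CPM against 108 to 125 CPM, fell by 0.55 (SE 0.07, edgeR adjusted p = 1.33e-07). PSMD3, a lid subunit, fell by 0.44 (SE 0.05, edgeR adjusted p = 4.64e-08) and PSMG3 by 0.41 (SE 0.08, edgeR adjusted p = 4.48e-05). PSMB5, PSMB9 and PSMB7 fell by 0.39, 0.35 and 0.22, and PSMB10, at -0.43, did not pass. With all libraries PSMA4 was at 0.72, PSMD1 at 0.65, PSMC6 at 0.55, PSMB6 at -0.19, PSMD3 at -0.20, PSMG3 at -0.13, PSMB5 at -0.13, PSMB10 at -0.14, PSMB7 at -0.04 and PSMB9 at -0.03. For PSMB6 the third library was above every CRLM1_NC library and the other hnRNPK libraries were below them all.

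In the Antisense background hnRNPK was accompanied by more transcript of the base ATPases and the alpha ring and by less of the inhibitor PSMF1. In Antisense_hnRNPK against Antisense_NC, 26 of 48 entries were higher and 13 lower with all libraries, against 33.4% and 30.5% of all genes (63.9% called). The member median was 0.36, against 0.04 over all genes. On log2 FPKM, where the median of all genes shifted by 0.25, the split was 32 higher and 6 lower. Base ATPases rose in 5 of 6 cases, with PSMC4 falling by 0.56, and alpha ring genes in 5 of 7. Noncatalytic beta genes fell in 3 of 4 cases.

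Of the 48 entries 6 passed 2-fold, against 13.4% of all genes. The PSMA2 readthrough model was at 34.8, 34.3 and 38.9 CPM in Antisense_NC and at 104, 82.2 and 69 CPM with hnRNPK (log2 fold change 1.24, SE 0.13, edgeR adjusted p = 2.23e-06). PSMC2, an ATPase of the base, was at 32.9, 33.1 and 33.3 CPM against 78.3, 77.2 and 72.3 CPM (1.19, SE 0.08, edgeR adjusted p = 9.8e-08). PSMA2 itself rose by 1.17 (SE 0.40, edgeR adjusted p = 0.0201) from 0.429, 0.208 and 0.557 CPM to 0.936, 0.843 and 0.881 CPM, levels of few reads, and this call was lost in 6 of 16 other settings, where the adjusted p reached 0.319. PSMD14, the lid enzyme that cuts ubiquitin chains off substrates, went from 67.9, 71.4 and 71.5 CPM to 151, 153 and 148 CPM, a log2 fold change of 1.09. PSMC6 and the alpha ring chaperone PSMG1 rose by 1.02 and 1.01.

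Among the members that fell, PSMF1 went from 103, 109 and 103 CPM to 57.4, 62.8 and 71.3 CPM (log2 fold change -0.73, SE 0.09, edgeR adjusted p = 4.8e-06), without overlap. PSMG3 fell by 0.72 (SE 0.11, edgeR adjusted p = 4.28e-05), and PSMB2, a noncatalytic beta subunit, by 0.69 (SE 0.09, edgeR adjusted p = 7.96e-06). The catalytic genes split: PSMB7 rose by 0.50 (edgeR adjusted p = 0.00044), being at 101 to 120 CPM in Antisense_NC and 137 to 171 CPM with hnRNPK, while PSMB6 fell by 0.38 and PSMB5 by 0.37. PSMB9 was at 0.11 (0.32) and PSMB10 at 0.08 (0.71), neither past the threshold. Over 16 other settings the fall of PSMB6 no longer passed in 5 and that of PSMB5 in 3. Their log2 fold changes there shrank to as little as -0.09 and -0.12, while the rise of PSMB7 passed in all 16.

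GC content moved with all 3 hnRNPK comparisons, for members and for genes at large. Across genes, Spearman's rho between GC content of the longest transcript and the log2 fold change was -0.74 in the Ctrl background and -0.76 in the CRLM1 background (both without the third library, and -0.71 and -0.64 with it) and -0.71 in the Antisense background. Across the 47 or 48 members it was -0.74, -0.76 and -0.64, with -0.74 and -0.67 for the Ctrl and CRLM1 backgrounds when the third library was kept. These points share libraries and are not independent. Members called higher with hnRNPK had a median GC content of 40.5%, 40.5% and 41.3% in the 3 backgrounds, and those called lower 52.7%, 52.5% and 52.9%. In the contrasts of NC groups rho across members was -0.31 (CRLM1_NC against Ctrl_NC), 0.40 (CRLM1_NC against Antisense_NC) and -0.48 (Antisense_NC against Ctrl_NC), against -0.16, 0.29 and -0.30 over all genes. The part of GC content in these results was not tested beyond the recalculation that follows.

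**Figure D4:**
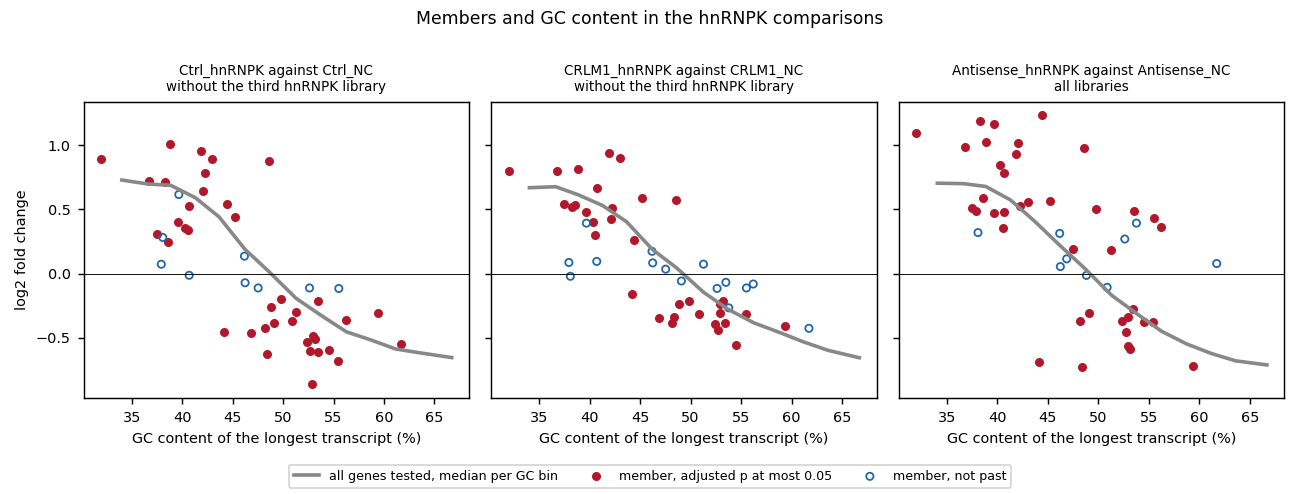
The log2 fold change with hnRNPK (vertical axis) against GC content of the longest transcript in percent (horizontal axis), for each member in the 3 backgrounds; the grey line is the median of all tested genes per GC bin, filled points passed the adjusted p threshold and open points did not. In all 3 panels the members fall from about the upper left to the lower right along the line of all genes.

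When a smooth trend of log2 counts on GC content and length was removed from each library before the test, some hnRNPK changes shrank and others grew. In the Antisense background 16 members were then higher and 9 lower, 23 of these 25 having been called without the removal, and the median went from 0.36 to 0.02. PSMB2 went from -0.69 to -1.04 and PSMA7 from 0.43 to 0.76. PSMC1 (0.93), the PSMA2 readthrough model (0.89) and PSMA7 were the highest, and PSMB2, PSMF1 (-0.80) and PSMB4 (-0.48) the lowest. Values of PSMC1, here and below, are subject to the NRDE2 overlap named above. In the Ctrl background without the third library 6 were higher and 22 lower, with PSMC1 at 0.83 and PSMB2 at -0.81 at the ends. In the CRLM1 background without the third library 8 were higher and 14 lower, from PSMA6 at -0.62 to PSMC1 at 0.52. With all libraries of that background PSMA4 was the one entry past the threshold (0.45, edgeR adjusted p = 0.047). In the NC contrasts the counts were 15 higher and 6 lower for CRLM1_NC against Ctrl_NC, 12 and 13 for CRLM1_NC against Antisense_NC, and 19 and 15 for Antisense_NC against Ctrl_NC. PSMB9 (-0.52) and PSMB10 (-0.64) stayed lower in CRLM1_NC than in Ctrl_NC, and PSME4 (1.00) and PSMD12 (0.81) stayed higher in Antisense_NC than in Ctrl_NC, while PSMB6 went to 0.05 there.

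**Figure D5:**
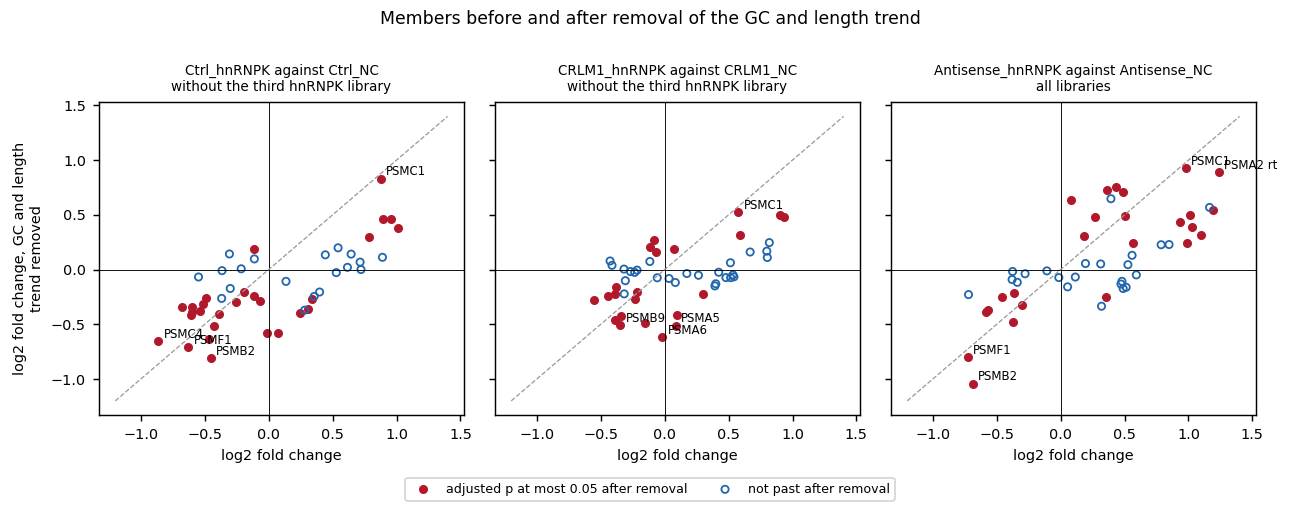
The log2 fold change with hnRNPK of each member before (horizontal axis) and after (vertical axis) removal of the GC and length trend, in the 3 backgrounds; the dashed line marks equal values and filled points passed the adjusted p threshold after removal. Most members lie nearer 0 on the vertical than on the horizontal axis, and PSMC1 stays near the dashed line in each panel.

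Whether the hnRNPK change of a member differed between backgrounds was tested as an interaction. Between the CRLM1 and Ctrl backgrounds 0 of 48 entries passed with all libraries (0% of all genes by edgeR, 0 at an unadjusted p of 0.05), and 6 passed without the third hnRNPK libraries, all higher in CRLM1 (3.36% of all genes were higher and 0.0904% lower, 3.45% in all), led by PSMC4 (log2 difference 0.59, edgeR adjusted p = 0.0018), PSME2 (0.40) and PSMD8 (0.39). Between CRLM1 and Antisense 1 entry passed with all libraries (1.12% of all genes, 0.807% higher and 0.315% lower), the PSMA2 readthrough model at -1.07 (SE 0.23, edgeR adjusted p = 0.0419), a call lost without any one Antisense_NC or CRLM1_NC library or without Antisense_hnRNPK replicate 1 or 2 (adjusted p up to 0.141). Without the third hnRNPK libraries of both backgrounds 17 passed (26.5% of all genes, 17.3% higher and 9.23% lower), 4 higher and 13 lower, with the PSMA2 readthrough model at -1.10, PSMB7 at -0.81 and PSMC2 at -0.71 lowest and PSMB2 at 0.61, PSMF1 at 0.47 and PSME1 at 0.40 highest. Between Antisense and Ctrl 0 of 48 passed with all libraries (0% of all genes by edgeR, 11 at an unadjusted p of 0.05), and 16 without the third libraries (16% of all genes, 6.58% higher and 9.47% lower), 13 higher and 3 lower. The PSMA2 readthrough model (0.82), PSMC3 (0.78) and PSMB7 (0.78) were highest and PSMG3 (-0.45), PSMD1 (-0.37) and PSMB2 (-0.31) lowest. PSMB7 rose with hnRNPK in the Antisense background and fell in the Ctrl background without the third library.

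PSMC3IP, the recombination factor that the symbol rule took in, had 396 to 652 counts per library. Among the 6 comparisons with all libraries it passed in CRLM1_NC against Antisense_NC (log2 fold change -0.23, edgeR adjusted p = 0.0185).

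Genes that work with the proteasome but carry other names were read from lists. The shares of all genes called higher and lower, against which their counts are to be read, were 16.9% and 17.4% in CRLM1_NC against Ctrl_NC, 34.4% and 32.2% in Antisense_NC against Ctrl_NC, and 33.4% and 30.5% in Antisense_hnRNPK against Antisense_NC. No list was tested. Of 10 core- or cap-associated genes, which include the core chaperone POMP and the ubiquitin receptor ADRM1, 4 were higher and 1 lower in CRLM1_NC against Ctrl_NC, 5 and 3 in Antisense_NC against Ctrl_NC, and 6 and 1 in Antisense_hnRNPK against Antisense_NC. In the last, POMP rose by 0.76 and ADRM1 fell by 0.75. UCHL5 and USP14, deubiquitinases that dock on the cap, were higher by 1.00 and 0.88 in Antisense_NC than in Ctrl_NC. Of 12 genes that control proteasome gene transcription, 4 were higher and 2 lower in CRLM1_NC against Ctrl_NC and 5 and 4 in Antisense_NC against Ctrl_NC, where NFE2L2, which binds antioxidant response elements, was higher by 1.03, its partner MAFK lower by 1.13 and the CCAAT-binding subunit NFYC higher by 1.24. With hnRNPK in the Antisense background 5 were higher and 5 lower.

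Read against the same shares, of 6 ubiquitin genes and activating enzymes, 1 was higher and 4 lower both in CRLM1_NC against Ctrl_NC and in Antisense_NC against Ctrl_NC. In the latter the ubiquitin precursor gene RPS27A fell by 0.72 and the activating enzyme UBA6 rose by 0.62. Of 7 shuttle and segregase factors, which carry ubiquitinated proteins to the proteasome, 4 were higher and 1 lower in CRLM1_NC against Ctrl_NC. With hnRNPK in the Antisense background 1 was higher and 4 lower. Of the 12 MHC class I genes, 2 were higher and 6 lower with hnRNPK in the Antisense background, with the peptide-loading factor TAPBP at -1.10 and IRF1 at -0.89.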

How the data were processed

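Total RNA of 18 HCT116 libraries had been extracted with TRIZOL, prepared with the KAPA RNA HyperPrep Kit and sequenced in paired ends. The authors trimmed reads with FASTX-Toolkit, aligned them to GRCh38 with TopHat2 and Gencode gene models, and deposited whole-number read counts of uniquely mapped reads per gene. The authors also deposited FPKM values, counts scaled by transcript length and library size. Whether counting used strand is not given in the sources used here. The submitters' processing notes name bcl2fastq, TopHat2 and edgeR.

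Counts were tested with edgeR 4.0.16 (R 4.3.3; TMM, filterByExpr, robust quasi-likelihood, Benjamini-Hochberg over all genes tested), 1 fit per comparison, with calls at an adjusted p of at most 0.05. The same steps recovered known changes in simulated counts. Few genes were changed in that simulation, the spread was fixed, and no outlier library or GC trend was set. It therefore cannot vouch for the calls where these data have such features. CPM values are TMM-scaled. Alternatives were DESeq2 1.42.0, limma 3.58.1 on log2(FPKM + 0.1) and log2(FPKM + 1), no count filter, 1 fit of all 18 libraries, each library left out, a replicate block, readthrough models summed with their genes, and removal of a trend on GC content and length (spline with 6 degrees of freedom). The last with the third hnRNPK libraries left out, and the summed models, were added after seeing the data. Transcript properties and overlaps came from Gencode 44 and promoters from RefSeq. The sources do not say whether replicates were separate cultures, so p-values measure the spread between these samples. The members and lists were chosen with earlier results of these data known. The genes named are, per comparison, the up to 3 highest and 3 lowest past the threshold plus the 6 catalytic genes, and from other lists those changed most. Some genes of these lists are not reported here.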

Additional observations from a re-analysis of the deposited data

Results flagged for a closer look

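The hnRNPK change of the PSMA2 readthrough model differed between the CRLM1 and Antisense backgrounds by -1.073 on the log2 scale (edgeR interaction, SE 0.23, adjusted p = 0.0419). In CPM it was at 34.3 to 38.9 in Antisense_NC and 69 to 104 in Antisense_hnRNPK, and at 46.4, 52.5 and 40.8 in CRLM1_hnRNPK against 39.0, 41.3 and 46.5 in CRLM1_NC. Over 22 other settings the difference ranged from -1.31 to -0.90, and in 9 of them it no longer passed, the adjusted p reaching 0.141.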

How the results depend on the processing

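Most choices left the counts of members past the threshold within 1.5 times of those reported. Exceptions were a single fit of all 18 libraries, which called 0 members in CRLM1_NC against Ctrl_NC, 5 in CRLM1_NC against Antisense_NC and 16 in Antisense_NC against Ctrl_NC. Leaving out 1 library at a time gave 0 to 38 calls in Ctrl_hnRNPK against Ctrl_NC and 0 to 33 in CRLM1_hnRNPK against CRLM1_NC, the highest each time without the third hnRNPK library. Other ranges were 20 to 22, 26 to 31, 29 to 33 and 35 to 39. With the GC and length trend removed the CRLM1 hnRNPK comparison called 1 (22 without the third library), the Ctrl one 28 without the third library and the Antisense one 25. The replicate numbers did not pair the libraries (correlations of deviations -0.10 to 0.06), and a replicate block gave 22, 33, 33 and 37 calls in the comparisons with calls.

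Among the interactions, CRLM1 minus Ctrl gave 6 calls without the third hnRNPK libraries and 5 with the trend also removed. CRLM1 minus Antisense gave 5 with DESeq2, 2 with no filter, 0 with the replicate block, 6 and 9 with limma, 8 with the trend removed, 17 without the third libraries, 19 with both, and 0 to 15 leaving out 1 library (15 without CRLM1_hnRNPK replicate 3, 3 and 2 without replicates 1 and 2, 1 without Antisense_hnRNPK replicate 3 and 0 without any other). Antisense minus Ctrl gave 5 with DESeq2, 4 with limma (pseudocount 1), 4 with the trend removed, 16 without the third libraries, 14 with both, and 0 to 10 leaving out 1 library (10 without Ctrl_hnRNPK replicate 3, 0 without any other). The immunoproteasome share from CPM in place of FPKM was 8.545% in Ctrl_NC, 5.973% in CRLM1_NC, 6.165% in CRLM1_hnRNPK, 9.993% in Antisense_NC and 11.05% in Antisense_hnRNPK.

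Of 953 alternative values of 61 named fold changes, 832 kept direction and side of the threshold, 51 no longer passed (17 of them in the single fit), 45 newly passed and 25 changed sign. With limma (pseudocounts 0.1 and 1) the log2 fold change of PSMB5 in CRLM1_NC against Ctrl_NC was 0.0153 and 0.01513, and in Antisense_NC against Ctrl_NC PSMB9 was 0.08016 and 0.07782 and PSMB10 0.1141 and 0.09622. With the trend removed PSMB10 was 0.2121 and PSMB6 0.04779 in Antisense_NC against Ctrl_NC, PSMB10 0.02242 in Ctrl_hnRNPK against Ctrl_NC, PSMG3 0.02734 and PSMB10 0.04094 in CRLM1_hnRNPK against CRLM1_NC (0.0387 and 0.07839 without the third library), and PSMB9 -0.06828 in Antisense_hnRNPK against Antisense_NC (-0.06063 without the third library). The cause was not tested. Leaving out 1 library, PSMB9 ranged from -0.4671 to 0.06256 in Ctrl_hnRNPK against Ctrl_NC, PSMB7 from -0.2177 to 0.07502, PSMB9 from -0.3481 to 0.1085 and PSMB10 from -0.4271 to 0.08279 in CRLM1_hnRNPK against CRLM1_NC, and PSMB10 from -0.03954 to 0.2713 in Antisense_hnRNPK against Antisense_NC. Few reads limit PSMB8, PSMA2 and PSMB10, and readthrough models limit PSMA1, PSMA2 and PSMA6.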
